A study of Drosophila melanogaster with 12 samples.

Results

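Neuropeptide receptors are membrane proteins that read peptide hormones and peptide co-transmitters, and the 40 genes described here are peptide G-protein-coupled receptor genes taken by symbol from a count table of 14162 *Drosophila* genes. By family, 30 of them were rhodopsin-like, 5 secretin-like and 4 leucine-rich repeat receptors, and 1, *CG32547*, was listed as an orphan. The genes lie on X (9), 2L (3), 2R (5), 3L (10) and 3R (13). RNA was sequenced from pooled heads of mated females kept at 29 °C, in 4 groups of 3 samples that all carried the pan-neuronal driver *nSyb-Gal4*. Control flies carried the driver over *w1118*. AD flies expressed secreted human Arctic Aβ42 in neurons, AD + Yip7 flies expressed Aβ42 together with the fly serine protease Yip7, and AD + Yip7∆S flies expressed Aβ42 with a Yip7 that lacks its putative transmembrane domain. The labels give an age of 10 days for every sample except the third Control sample, which is labelled as 2 weeks old, and they name heads as the tissue although the descriptions speak of dissected brains. Nothing says whether a label number marks a shared culture or day. The samples were treated as unpaired, and p-values set a group difference against the spread between samples of a group.

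As background, peptides are cut from larger precursors, amidated and released from dense-core vesicles, and they act on cells that can lie far from the releasing neuron. The receptors couple through G proteins to cAMP or to phospholipase C and calcium, and each is usually named after its ligand. In the fly head these genes are used by neurons, by the fat body around the brain and by other tissues, so a change in RNA from whole heads can come from fewer cells of a type or from less RNA per cell, and these cannot be told apart in bulk samples.

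The 12 libraries held 38064884 to 41737332 counts, and all 40 receptor genes passed the filter on low counts that kept 10577 genes. Values are CPM, a gene's counts scaled to a library's total after edgeR's TMM adjustment, and a gene was called when the Benjamini-Hochberg adjusted p of edgeR's quasi-likelihood test, taken over all genes tested in a comparison, was under 0.05. Control sample 1 and AD sample 3 stood apart from the others of their groups, with the highest and the lowest summed neuronal markers. In both protease groups sample 2 stood apart by summed midgut markers. These were 644 CPM in AD + Yip7 sample 2, against 162 and 190 in samples 1 and 3. In AD + Yip7∆S sample 2 they were 430 CPM, against 135 and 133. The expressed gene itself, *yip7*, had 0 to 6.07 CPM in Control, 94.2 to 159 in AD, 123 to 173 in the samples labelled AD + Yip7 and 73.7 to 88.1 in those labelled AD + Yip7∆S. By *yip7* alone the samples labelled AD + Yip7 overlapped AD, with a log2 fold change of 0.08 (adjusted p = 0.976), so the directions below rest on the labels of these 2 groups.

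Levels of the receptor genes spanned a wide range. Compared per kilobase of exon, the mean over 12 samples ran from 0.272 CPM per kb for *RYa-R*, the RYamide receptor, to 26.1 CPM per kb for *AkhR*, a 96.0-fold range with a median of 2.04. Of the 40 genes, 10 lay above 5 CPM per kb and 7 below 1. After *AkhR* came *Pdfr* (13.0), the receptor of the clock peptide PDF, and *SPR* (10.7), which responds to sex peptide and to myoinhibitory peptides. *Lgr1* (8.39), the glycoprotein hormone receptor, and *Dh44-R2* (8.33), a receptor of the CRF-like diuretic hormone, followed. Of these 5 genes only *AkhR* stood clear of its neighbor, with its lowest sample at 15.8 CPM per kb and the highest *Pdfr* sample at 15.04; *Pdfr* overlapped *SPR*, and *Lgr1* overlapped *Dh44-R2*, over the 12 samples. The 5 genes with the highest CPM made up 40.5% to 49.3% of the CPM summed over the receptors of a sample.

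**Figure D1:**
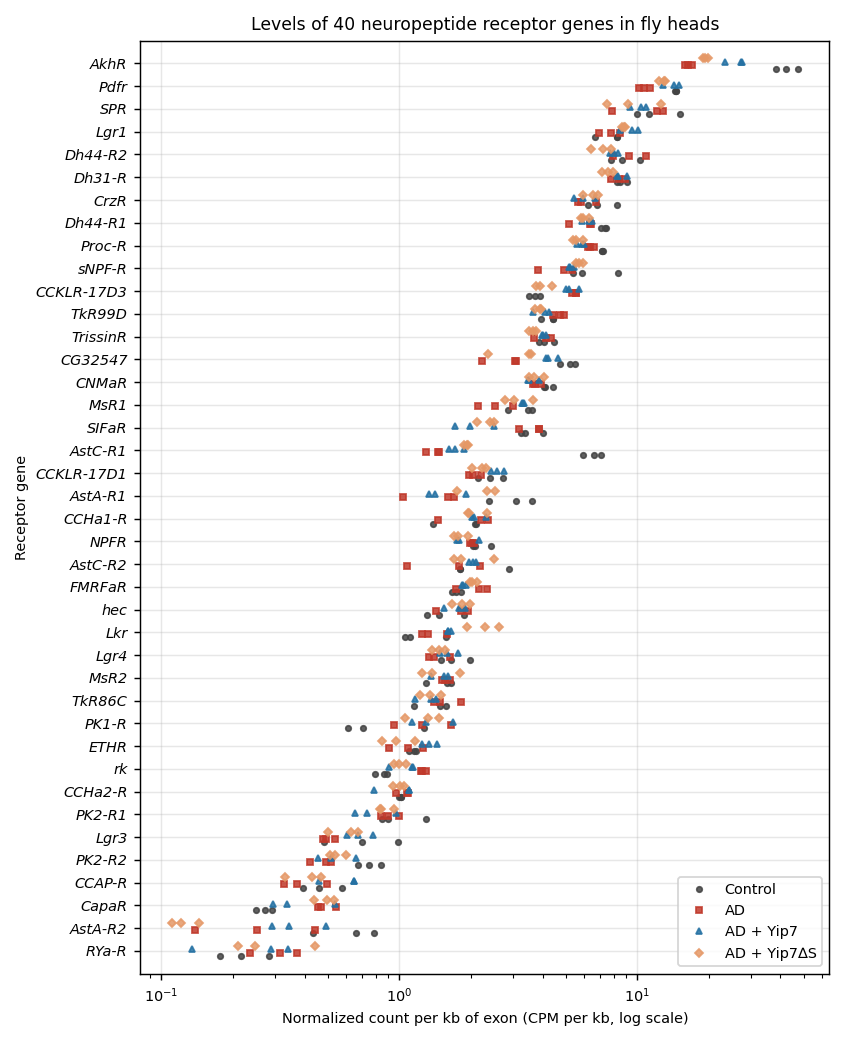
Levels of the 40 receptor genes in CPM per kilobase of exon on a log axis, with each of the 12 samples as a point and the groups by color and shape. Genes are ordered by the mean over 12 samples, from *RYa-R* at 0.272 to *AkhR* at 26.1.

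Among these abundant receptors, *SPR*, *Lgr1* and *Dh44-R2* were called in no comparison. *SPR* measured 56.3, 37.1 and 41.6 CPM in the Control samples, 45.4, 48.0 and 29.2 in AD, 40.7, 38.6 and 34.8 in AD + Yip7, and 27.7, 34.3 and 47.0 in AD + Yip7∆S, so the groups overlapped throughout. *Lgr1* measured 26.6, 21.4 and 26.5 CPM in Control, 25.1, 27.4 and 22.3 in AD, 27.2, 32.6 and 30.6 in AD + Yip7, and 28.5, 28.5 and 27.9 in AD + Yip7∆S. *Dh44-R2* measured 33.7, 25.3 and 28.3 CPM in Control, 30.3, 35.5 and 25.8 in AD, 25.2, 27.3 and 26.2 in AD + Yip7, and 21.1, 25.4 and 23.6 in AD + Yip7∆S. Its exons overlap those of 2 genes on the other strand, as do those of 6 further receptors (*RYa-R*, *SPR*, *Lgr3*, *Lgr4*, *rk* and *CG32547*) with at least 1 gene, and because the strand setting of the counting is not given in the sources used here, the values of these 7 genes are uncertain to that extent.

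AD was compared with Control to ask which receptor genes differ when Aβ42 is expressed in neurons. Of the 40 receptors 12 were called, 3 higher and 9 lower, which is 30% against 26.0% of all genes tested (14.4% higher and 11.6% lower). Their median log2 fold change was -0.13, beside -0.01 over all genes tested, and the samples of the groups did not overlap for 13 receptors, where 44.0% of all genes were separate. The lowest values were those of *AstC-R1*, *AkhR*, *AstA-R2*, *AstA-R1* and *CG32547*, and the 3 higher genes were *CapaR*, *rk* and *CCKLR-17D3*. Upper quartile normalization, which gave 9 calls, split them 4 higher and 5 lower, and without AD sample 1 the count was 7.

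*AstC-R1* encodes a receptor of allatostatin C that is related to somatostatin receptors. It had 20.6, 19.2 and 17.2 CPM in Control, against 4.30, 4.23 and 3.78 in AD, 5.01, 4.73 and 5.44 in AD + Yip7, and 5.47, 5.60 and 5.65 in AD + Yip7∆S. All 9 samples with Aβ42 lay far below every Control sample. The gene (FBgn0036790) lies on the plus strand of 3L at 18560258 to 18576326. In AD it was 4.63-fold lower than in Control, a log2 fold change of -2.21 (SE 0.11; adjusted p = 3.57e-08), and it was called under every alternative tried. *AstC-R2*, the other receptor of this peptide, averaged 8.09 ± 2.36 CPM over the Control samples and 6.27 ± 2.07 over the AD samples (SD, n = 3) and was not called (log2 fold change -0.37; adjusted p = 0.297 from edgeR).

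*AkhR* encodes the receptor of adipokinetic hormone, which mobilizes lipid and sugar stores in the fat body, and the gene (FBgn0025595) lies on the minus strand of 2L at 6711286 to 6716186 in dm6 coordinates, as do all positions given here. *AkhR* had 151, 134 and 122 CPM in Control and 52.0, 54.0 and 50.4 in AD, with no overlap. The log2 fold change was -1.38 (SE 0.10; adjusted p = 1.09e-06), 2.60-fold lower. Fat body markers moved beside it: summed over 8 genes they had 97362 to 106991 CPM in Control and 76335 to 80638 in AD, with *Lsp2*, *apolpp* and *Yp2* lower and *Fbp2* higher, and none of the 8 was at 0 in every sample. Most of this sum came from the yolk protein genes *Yp1*, *Yp2* and *Yp3*, with Control means of 44490, 20973 and 27795 CPM. *Yp1*, *Yp3*, *Apoltp* and *Fbp1* were not called. *Fbp2* had means of only 0.0246 CPM in Control and 0.350 in AD, the former under 3 counts per library. The lipoprotein gene *apolpp* had a log2 fold change of -0.87, and *Apoltp* had 0.07. The part of fat body content in the *AkhR* result was not tested.

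*AstA-R1* and *AstA-R2* bind allatostatin A, which in flies acts on feeding. *AstA-R1* had 13.3, 8.87 and 11.5 CPM in Control and 6.31, 5.96 and 3.85 in AD, and the groups did not overlap (log2 fold change -1.06, SE 0.22; adjusted p = 0.00357). *AstA-R2* was near the bottom of the range, with 11 to 77 counts per sample, and had the widest spread within groups of the 40 genes. It measured 1.02, 1.55 and 1.85 CPM in Control and 0.327, 1.04 and 0.594 in AD, so the groups overlapped, and its call (log2 fold change -1.17, SE 0.39; adjusted p = 0.0437) was lost in 12 of 21 alternatives.

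*CG32547* (FBgn0052547, X, 18443027 to 18479487, minus strand), for which no ligand is listed here, had 23.7, 21.6 and 25.0 CPM in Control and 14.0, 14.1 and 10.2 in AD (log2 fold change -0.88, SE 0.16; adjusted p = 0.00181). *Pdfr* had 67.2, 68.3 and 67.6 CPM in Control and 49.9, 53.0 and 47.7 in AD, a smaller difference with little spread (log2 fold change -0.43, SE 0.08; adjusted p = 0.00247). The study's own text names *AkhR*, *CG32547* and *Pdfr* among genes picked on these same samples, so their directions are no independent evidence.

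Besides *AstA-R2*, 3 of the 9 lower receptors were weaker calls. *sNPF-R*, the receptor of short neuropeptide F, a peptide of feeding control, had 39.3, 25.6 and 27.8 CPM in Control and 23.5, 25.2 and 18.2 in AD (log2 fold change -0.47; adjusted p = 0.0402), and its log2 fold change was -0.25 without Control sample 1 (adjusted p = 0.188). *PK2-R2*, a receptor of the hugin peptide, had 1.96, 2.20 and 2.45 CPM in Control and 1.23, 1.51 and 1.45 in AD (log2 fold change -0.66; adjusted p = 0.0339). *Dh44-R1* had 17.4, 18.1 and 18.3 CPM in Control and 12.8, 15.6 and 15.8 in AD (log2 fold change -0.28; adjusted p = 0.0496). For each of these 3 genes the samples did not overlap, and the *sNPF-R*, *PK2-R2* and *Dh44-R1* calls were lost in 10, 9 and 18 of 21 alternatives.

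The receptors that rose were *CCKLR-17D3*, *rk* and *CapaR*. *CCKLR-17D3*, a receptor of the cholecystokinin-like drosulfakinins, had 8.68, 8.26 and 7.84 CPM in Control and 11.9, 12.3 and 12.3 in AD (log2 fold change 0.56, SE 0.10; adjusted p = 0.00115). *rk*, which encodes the bursicon receptor of cuticle hardening, had 4.65, 4.25 and 4.77 CPM in Control and 6.99, 6.67 and 6.68 in AD (log2 fold change 0.57, SE 0.12; adjusted p = 0.00405). *CapaR*, the Capa peptide receptor known from the renal tubules, counted only 19 to 41 reads per sample, with 0.497, 0.531 and 0.456 CPM in Control and 0.854, 0.989 and 0.832 in AD (log2 fold change 0.85, SE 0.29; adjusted p = 0.0496). The *CapaR* call was lost in 14 of 21 alternatives.

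**Figure D2:**
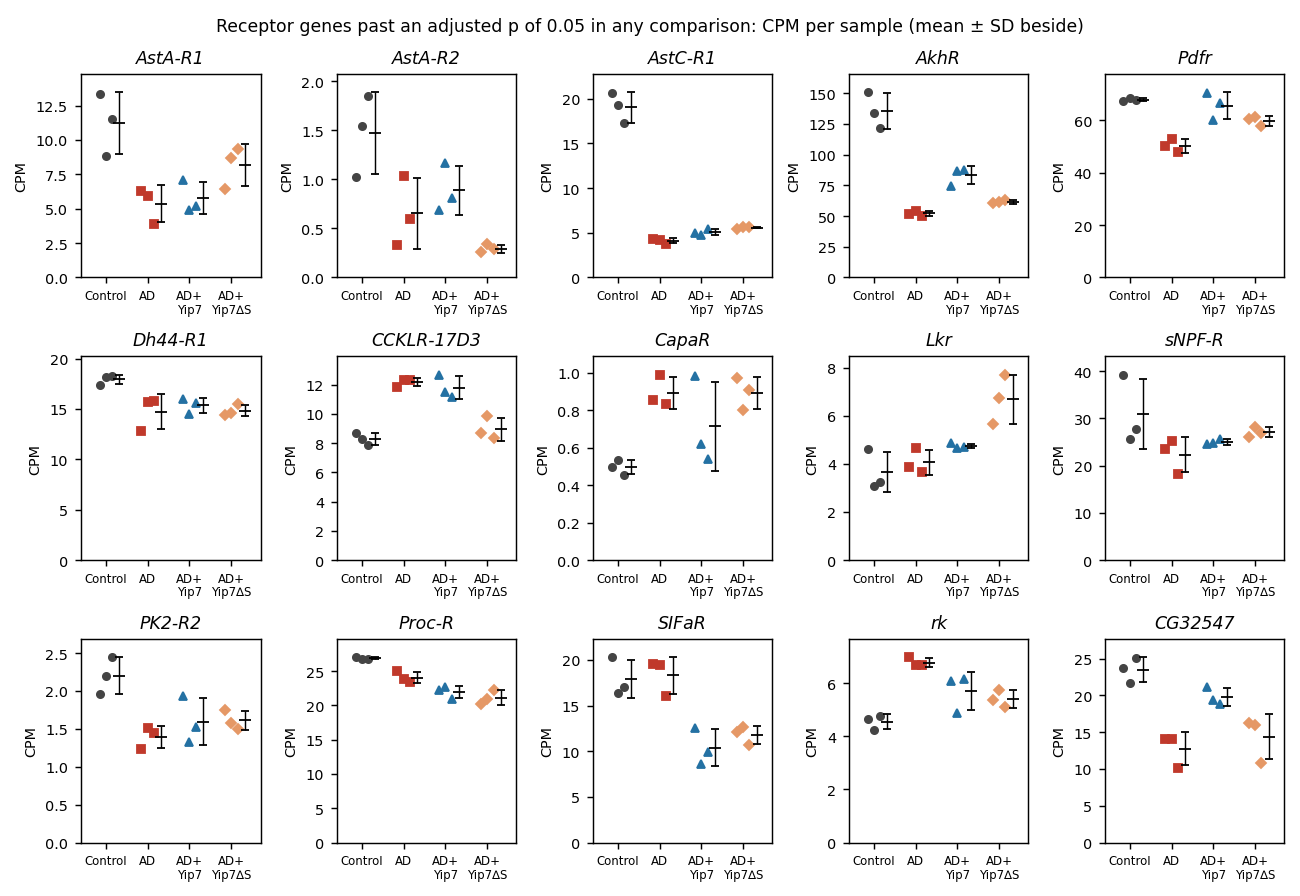
CPM per sample of the 15 receptor genes called in any of the 6 comparisons, with axes from 0. Points are samples in 4 groups and the bar beside them gives mean ± SD (n = 3). *AstC-R1* lay between 3.78 and 5.65 CPM in all 9 samples with Aβ42 and between 17.2 and 20.6 in Control.

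Co-expression of Yip7 was compared with AD to see which receptor genes change when the protease is added. In the samples labelled AD + Yip7, 3 of 40 receptors were called, 2 higher and 1 lower, or 7.5% against 1.81% of all genes tested (0.945% higher and 0.860% lower). The median log2 fold change of the receptors was 0.05 and that of all genes 0.02. Separate samples were seen for 12 of 40 receptors and 20.9% of all genes. Leaving out AD sample 1, AD sample 2 or AD + Yip7 sample 3 left 1 call each.

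*AkhR* rose from 52.0, 54.0 and 50.4 CPM in AD to 74.7, 86.7 and 87.8 in AD + Yip7 (log2 fold change 0.67, SE 0.10; adjusted p = 0.00366), and this call held in all 21 alternatives. It remained below Control, by a log2 fold change of -0.71 (adjusted p = 0.00036). Fat body markers, summed over 8 genes, were 109457 to 126701 CPM in AD + Yip7, above the AD range, with *apolpp*, *Yp1* and *Yp2* called higher than in AD. These sums also lay above the Control range of 97362 to 106991 CPM, and again most of them came from the yolk protein genes. *Yp1*, *Yp2* and *Yp3* had means of 55077, 25532 and 26650 CPM in AD + Yip7. The markers differed in their place beside Control. *apolpp* had means of 9089 CPM in Control, 4978 in AD and 7469 in AD + Yip7. *Lsp2* had 716, 16.9 and 164, and *Apoltp* had 479, 503 and 575. The part of fat body markers in the result was not tested.

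*Pdfr* (FBgn0260753, X, 2552206 to 2578640, plus strand) had 70.2, 59.9 and 66.4 CPM in AD + Yip7 (log2 fold change against AD 0.38, SE 0.08; adjusted p = 0.040), and this call was lost in 16 of 21 alternatives, with adjusted p up to 0.172. *CG32547* measured 21.2, 19.4 and 18.8 CPM, above all AD samples, but its log2 fold change of 0.63 missed the threshold in edgeR (adjusted p = 0.0752), whereas DESeq2 called it on 12 samples (adjusted p = 0.0111). *SIFaR* encodes the receptor of SIFamide, a peptide known for effects on mating and feeding behavior, and lies at 21276664 to 21293998 on the minus strand of 3R (FBgn0038880). It had 19.5, 19.4 and 16.0 CPM in AD, 12.6, 8.65 and 9.94 in AD + Yip7 and 20.3, 16.4 and 17.1 in Control. AD and Control overlapped for *SIFaR* (log2 fold change 0.03, 95% interval -0.28 to 0.34), whereas every AD + Yip7 sample lay below every sample of both. Against AD it fell by 0.82 on the log2 scale (SE 0.14; adjusted p = 0.0121). The call was lost when AD sample 1, AD sample 2, AD + Yip7 sample 2 or AD + Yip7 sample 3 was left out, with adjusted p from 0.0514 to 0.0631 and log2 fold changes from -0.79 to -0.70.

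Yip7∆S was compared with AD in the same way. In the samples labelled AD + Yip7∆S, 2 of 40 receptors were called and both were lower, 5% against 1.85% of all genes tested (0.870% higher and 0.983% lower), and the median log2 fold change was 0.00 beside 0.02 for all genes. The samples were separate for 14 of 40 receptors and for 18.0% of all genes. Leaving out Control sample 2 or 3, any of the 3 AD samples, or AD + Yip7∆S sample 1 or 3 left 0 calls, and leaving out AD + Yip7 sample 2 or 3 or AD + Yip7∆S sample 2 left 1.

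*SIFaR* was again lower, with 12.1, 12.6 and 10.6 CPM in AD + Yip7∆S (log2 fold change -0.64, SE 0.14; adjusted p = 0.0435), and the call was lost in 10 of 21 alternatives. *CCKLR-17D3*, which had risen in AD, measured 8.69, 9.83 and 8.35 CPM, all below the 3 AD samples (log2 fold change -0.44, SE 0.10; adjusted p = 0.0376), a call lost in 12 of 21 alternatives. *Lkr*, the receptor of leucokinin, a peptide of water balance, had 3.87, 4.65 and 3.66 CPM in AD and 5.66, 6.72 and 7.70 in AD + Yip7∆S, and it missed the threshold (log2 fold change 0.72; adjusted p = 0.0535). The groups did not overlap for these 3 receptors. *AkhR* had 60.3, 61.2 and 63.1 CPM, above all AD samples, with a log2 fold change of 0.24 (95% interval 0.03 to 0.45) that was not called (adjusted p = 0.261). Summed fat body markers were 94685 to 98458 CPM there, also above the AD range, with *apolpp* called higher (log2 fold change 0.55), and 1 of 8 glial markers was called higher, 2 of 8 muscle and 4 of 8 tested midgut markers lower. Their part in the results was not tested. *Pdfr* measured 60.5, 61.1 and 57.7 CPM (log2 fold change 0.25, interval 0.07 to 0.43; adjusted p = 0.169), and *CG32547* measured 16.3, 16.0 and 10.8.

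**Figure D3:**
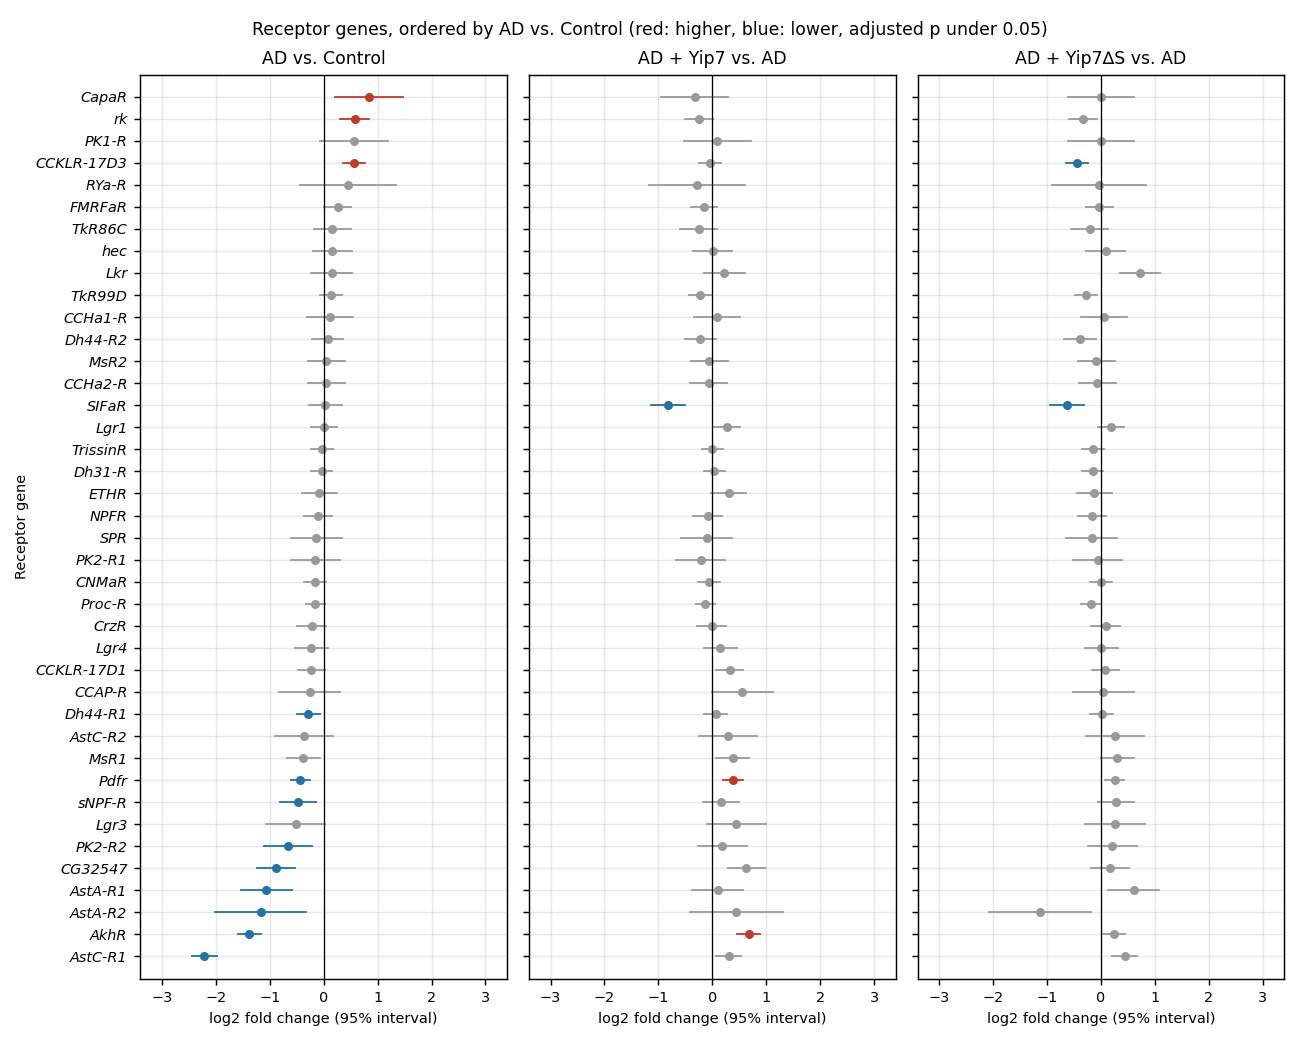
Log2 fold changes (points) and 95% intervals (lines) of the 40 receptor genes in 3 comparisons, ordered by the AD vs. Control value; red is higher, blue lower and grey not called. The lowest point in AD vs. Control is *AstC-R1* at -2.21, and *SIFaR* is blue in both right-hand panels.

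The difference between the protease forms was tested directly. In AD + Yip7 vs. AD + Yip7∆S no receptor was called by edgeR, with 0.0662% of all genes called. An unadjusted p under 0.05 was seen for 7 receptors, 17.5% against 10.3% of all genes. The samples were separate for 12 of 40 receptors and for 16.8% of all genes. DESeq2 called 3 receptors on all 12 samples (*AkhR*, *AstA-R2* and *CCKLR-17D3*) and 2 on the 6 samples compared (*AkhR*, and *AstA-R2* just under the threshold), all higher in AD + Yip7. The share of all genes that DESeq2 called is not given here, so these counts have no background beside them. *AkhR* was higher in AD + Yip7 by a log2 fold change of 0.43 (interval 0.22 to 0.64; adjusted p = 0.163), *CCKLR-17D3* by 0.40 (adjusted p = 0.165) and *AstA-R2* by 1.58 (adjusted p = 0.240). The intervals for *Pdfr* (-0.05 to 0.31) and *SIFaR* (-0.50 to 0.13) included 0. A call against AD in one group only therefore does not show that the 2 forms differ.

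Both protease groups were also compared with Control. In AD + Yip7, 6 receptors were called, 1 higher and 5 lower, where 14.6% of all genes were called (9.13% higher, 5.44% lower). In AD + Yip7∆S, 7 were called, 1 higher and 6 lower, beside 18.9% (10.9% higher, 7.94% lower). *AstC-R1* was lower in both (log2 fold changes -1.91 and -1.77), as were *AkhR* and *SIFaR*. *CG32547* was called lower in AD + Yip7∆S (log2 fold change -0.71; adjusted p = 0.00866), and in AD + Yip7 its value of -0.25 was not called (adjusted p = 0.353). *Proc-R*, the receptor of the muscle-active peptide proctolin, had 27.0, 26.8 and 26.8 CPM in Control, 25.0, 23.8 and 23.4 in AD, 22.2, 22.7 and 21.0 in AD + Yip7 and 20.2, 21.0 and 22.3 in AD + Yip7∆S, and it was called lower in both protease groups (log2 fold changes -0.29 and -0.35; adjusted p = 0.0299 and 0.0102), the former call being lost in 10 of 21 alternatives. All 3 groups with Aβ42 lay below Control for *Proc-R*, and its value in AD + Yip7∆S against AD was -0.19 (adjusted p = 0.297). *Lkr*, with 4.62, 3.09 and 3.26 CPM in Control and 4.85, 4.68 and 4.70 in AD + Yip7, was called higher in AD + Yip7∆S (log2 fold change 0.87; adjusted p = 0.00376) and was not called in AD + Yip7 (0.37; adjusted p = 0.185). *AstA-R2*, at 0.260, 0.340 and 0.285 CPM in AD + Yip7∆S, was 4.95-fold lower than in Control (log2 fold change -2.31; adjusted p = 0.0022).

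The remaining receptors called in AD were measured in the protease groups as follows. *AstA-R1* had 7.07, 4.94 and 5.22 CPM in AD + Yip7, where it was called lower than Control (log2 fold change -0.97; adjusted p = 0.0103, and 0.0511 without AD + Yip7 sample 2), and 6.46, 8.68 and 9.36 in AD + Yip7∆S, where it was not called against Control or AD. *AstA-R2* had 0.689, 1.16 and 0.808 CPM in AD + Yip7, all above the AD + Yip7∆S samples. *CCKLR-17D3* had 12.7, 11.5 and 11.2 CPM in AD + Yip7, above every Control sample (log2 fold change 0.51; adjusted p = 0.00319). The protease groups overlapped for *AstA-R1*, and edgeR called none of these 3 receptors between them.

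*rk* had 6.09, 4.89 and 6.17 CPM in AD + Yip7 and 5.37, 5.75 and 5.11 in AD + Yip7∆S, between the Control and AD means. *CapaR* had 0.980, 0.618 and 0.539 CPM in AD + Yip7 and 0.970, 0.801 and 0.907 in AD + Yip7∆S. *sNPF-R* had 24.5, 24.7 and 25.7 CPM in AD + Yip7 and 26.1, 28.2 and 27.0 in AD + Yip7∆S. None of these genes was called in either protease group against AD or Control, and the same holds for the next pair. *PK2-R2* had 1.93, 1.33 and 1.52 CPM in AD + Yip7 and 1.75, 1.58 and 1.504 in AD + Yip7∆S, and *Dh44-R1* had 16.0, 14.5 and 15.6 and then 14.4, 14.6 and 15.5.

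The other 25 receptors were called in no comparison. Their CPM per sample ranged from 0.309 to 56.3, and their log2 fold changes ran from -0.52 (*Lgr3*) to 0.57 (*PK1-R*) in AD vs. Control, from -0.28 to 0.55 in AD + Yip7 vs. AD and from -0.39 to 0.30 in AD + Yip7∆S vs. AD. They include both tachykinin family receptors, the neuropeptide F receptor *NPFR*, the corazonin receptor *CrzR* and the ecdysis hormone receptor *ETHR*. *Dh31-R*, a secretin-like receptor of diuretic hormone 31, averaged 28.2 ± 1.34 CPM in the Control samples and 27.4 ± 1.81 in the AD samples. *CrzR* averaged 22.9 ± 3.39 and 19.6 ± 1.82 CPM in Control and AD. For *NPFR* the means were 7.02 ± 0.718 and 6.49 ± 0.115 CPM, and for *TkR99D*, a tachykinin receptor, 12.3 ± 0.831 and 13.5 ± 0.733 (SD, n = 3 each). *MsR1*, a receptor of the muscle-relaxing myosuppressin, came nearest to a call in AD vs. Control (log2 fold change -0.38, interval -0.68 to -0.07; adjusted p = 0.0677). *CNMaR*, with a log2 fold change of -0.16, had every AD sample below every Control sample and was not called (adjusted p = 0.241).

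Receptors that share a ligand did not always move alike in AD vs. Control, although the difference between such genes was not tested. *AstA-R1* and *AstA-R2* were both called lower, while *AstC-R1* was called lower and *AstC-R2* had a log2 fold change of -0.37 (interval -0.90 to 0.17). For drosulfakinin, *CCKLR-17D3* was called higher and *CCKLR-17D1* had -0.23 (interval -0.48 to 0.02). For diuretic hormone 44, *Dh44-R1* was called lower and *Dh44-R2* had 0.07 (interval -0.22 to 0.36). Hugin's *PK2-R2* was called lower and *PK2-R1* had -0.15 (interval -0.60 to 0.30). The Capa peptide receptor *CapaR* was called higher and *PK1-R*, listed under the same precursor, had 0.57 (interval -0.06 to 1.20). By family, the rhodopsin-like receptors held 2 higher and 6 lower calls of 30, the secretin-like 2 lower of 5 and the leucine-rich repeat receptors 1 higher of 4 in AD vs. Control. Of all genes tested 26.0% were called there, near the rhodopsin-like and leucine-rich repeat shares.

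The ligands of these receptors moved more widely. Of 29 ligand genes tested of 33 listed, 5 were higher and 15 lower in AD vs. Control, the list's median log2 fold change being -0.51. Over all genes tested, 14.4% were higher and 11.6% lower there. *AstC* had 45.4, 39.1 and 41.4 CPM in Control and 20.9, 25.9 and 22.0 in AD (log2 fold change -0.87), so the RNA of both the peptide gene and *AstC-R1* was lower. Among the ligands called the largest fall was that of *SIFa*, the SIFamide gene, with 8.08, 9.11 and 8.37 CPM in Control and 0.578, 0.618 and 1.02 in AD (log2 fold change -3.52), where *SIFaR* had a log2 fold change of 0.03. *Akh* went the other way from *AkhR*, with 18.7, 8.67 and 3.96 CPM in Control and 37.5, 52.3 and 40.3 in AD (log2 fold change 2.06; adjusted p = 0.00424). *Pdf* also rose (log2 fold change 0.39; adjusted p = 0.0310) where *Pdfr* fell. Over 36 receptor and ligand pairs with both genes tested, 9 had both called in AD vs. Control: 6 both lower, 0 both higher and 3 opposite. Pairs can share a ligand, and *AstA* is among the 6 with both of its receptors. Also among them, the *AstA-R2*, *Dh44-R1*, *sNPF-R* and *PK2-R2* calls were lost in 12, 18, 10 and 9 of 21 alternatives. How many such pairs the call shares of the receptor and ligand lists would give by themselves was not tested.

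Against AD, 1 ligand was called in AD + Yip7 (*FMRFa*, log2 fold change -0.78) and 6 in AD + Yip7∆S, all lower, among them *Akh* (-2.33) and *SIFa* (-2.38). Over all genes tested, 1.81% and 1.85% were called in these comparisons. *Akh* had 17.9, 40.2 and 31.4 CPM in AD + Yip7 and 6.63, 9.02 and 10.2 in AD + Yip7∆S. *Akh* is made in the corpora cardiaca, glands beside the foregut. *SIFa* had 1.11, 0.475 and 0.588 CPM in AD + Yip7 and 0.0237, 0.121 and 0.285 in AD + Yip7∆S, where 1 library held a single count. Genes of peptide processing and release, such as the amidating enzyme gene *Phm*, counted 5 lower of 8 in AD vs. Control, G protein subunits 1 higher and 2 lower of 11, the cAMP pathway 5 lower of 16 and phospholipase C and calcium genes 2 lower of 7. The last 3 shares are near the 26.0% of all genes called in that comparison. None of these signalling genes was called in AD + Yip7 or AD + Yip7∆S vs. AD.

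Cell type markers moved in the same comparison. In AD vs. Control, 4 of 9 neuronal, 6 of 8 glial, 4 of 9 photoreceptor and 4 of 6 haemocyte markers were lower, 1 of 3 olfactory and 2 of 8 muscle markers were higher, and 7 of 8 tested midgut markers were higher. Beside these, 11.6% of all genes tested were lower and 14.4% higher. Summed neuronal markers were 3341 to 3740 CPM in Control and 2065 to 2841 in AD. Summed midgut markers, digestive enzyme genes, were 51.8 to 159 CPM in Control, 956 to 1417 in AD, 162 to 644 in AD + Yip7 and 133 to 430 in AD + Yip7∆S. The CPM summed over the receptors without *AkhR* was 473 to 553 in Control and 399 to 473 in AD. The part of any marker in the receptor results was not tested.

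**Figure D4:**
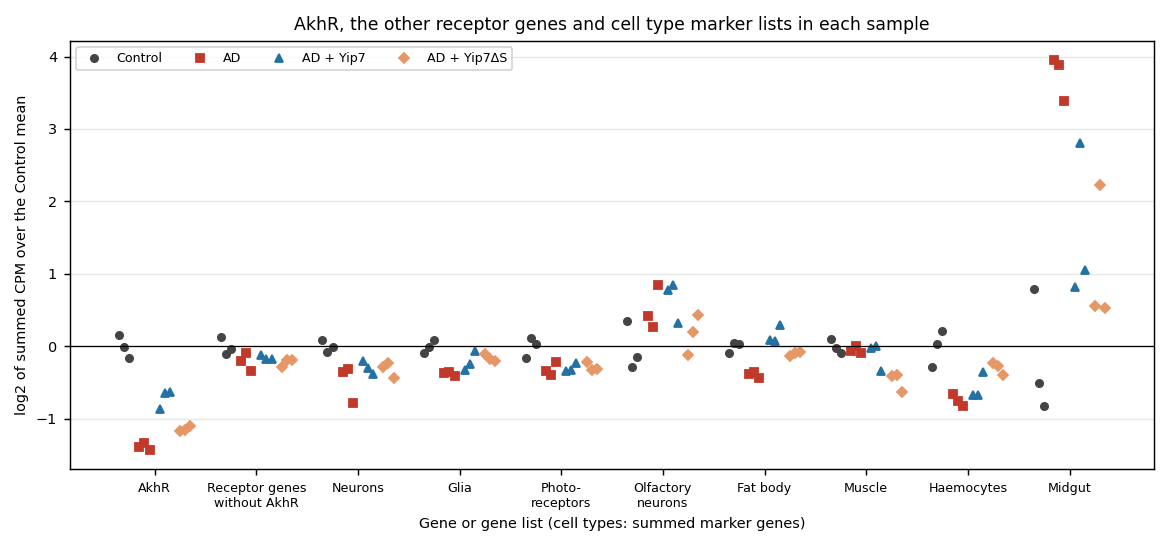
Log2 ratio of CPM to the Control mean for *AkhR*, the sum of the other 39 receptor genes and summed markers of 8 cell types, with 1 point per sample. *AkhR* lies below 0 in all 9 samples with Aβ42, fat body markers are lowest in the 3 AD samples, and midgut markers are highest there.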

How the data were processed

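Head RNA was sequenced in 12 samples, 4 groups of 3. Reads were cleaned (fastp), aligned (HISAT2) and assigned to genes (HTSeq-count) by the authors, who deposited the raw counts without scaling. The submitters' processing notes name HISAT2 2.1.0, StringTie 1.3.1, DESeq2 1.36.0 and the dm6 build, but the annotation and strand setting are not given in the sources used here. Exon lengths and positions came from Ensembl's *Drosophila* annotation.

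Testing used edgeR 4.0.16 under R 4.3.3 (filterByExpr, TMM, glmQLFit and glmQLFTest, all 12 samples in 1 fit, no covariate), with Benjamini-Hochberg adjustment over 10577 genes within each comparison and a threshold of 0.05. Standard errors were derived from the F statistic and intervals are at 95%. Alternatives were DESeq2 1.42.0, the 6 samples of a comparison alone, other normalizations and filters, a replicate block and each sample left out. A floor of 3 counts was under 0.1 CPM in every sample; it covers counting error only. The procedure was tested on simulated data.

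The receptor list, the context lists and the tests were chosen with earlier results of these data known. Values per sample are printed for receptors called in any comparison, for *AkhR*, *CG32547* and *Pdfr*, for the 5 highest per kilobase and for the gene with the widest spread; others are given by ranges and counts. Labels and methods differ on the library kit, and on the age of the third Control sample.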

Additional observations from a re-analysis of the deposited data

How the results depend on the processing

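Of 30 calls over the 6 comparisons, 19 held in all 21 alternatives, and none reversed. In AD vs. Control the 12 receptors became 7 with edgeR on 6 samples. In AD + Yip7∆S vs. AD the 2 became 4 with DESeq2 on 12 samples, 0 with edgeR on 6 samples, 1 under the replicate block and 1 with Control sample 1 and AD sample 3 left out, an alternative chosen after seeing the data. In AD + Yip7 vs. AD + Yip7∆S the 0 became 3 with DESeq2 on 12 samples and 2 on 6. The cause was not tested, and the shares of all genes called under the alternatives are not given here. Leaving out 1 sample gave 7 to 13 calls in AD vs. Control, 1 to 4 in AD + Yip7 vs. AD, 0 to 3 in AD + Yip7∆S vs. AD, 0 in AD + Yip7 vs. AD + Yip7∆S, 4 to 7 in AD + Yip7 vs. Control and 7 to 8 in AD + Yip7∆S vs. Control. *Pdfr* in AD + Yip7 vs. Control, never called, ranged from -0.11 to 0.0125 with 1 sample left out and changed sign without AD + Yip7 sample 2. The median over receptors in AD vs. Control was -0.02 without Control sample 1, and that in AD + Yip7 vs. AD was -0.04 without AD sample 3.

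Over the 18 pairs of samples with the same number, the median r of their deviations was 0.0479, with 5 above 0.1. All 5 were between groups with Aβ42, where r ran from -0.0180 to 0.290. Pairs with Control ran from -0.390 to 0.0565. The 36 pairs with other numbers had a median r of -0.00085, with 11 above 0.1 and a highest value of 0.498. Among these 36, the pairs between groups with Aβ42 ran from -0.264 to 0.188. Whether a number marks a shared culture among the groups with Aβ42 was not tested. The main fit did not take the numbers as pairs. The replicate block gave 9 calls in AD vs. Control, 5 in AD + Yip7 vs. Control and 2 in AD + Yip7 vs. AD. *AstA-R2* and *CapaR* had the fewest counts among the called receptors, 11 to 77 and 19 to 41 per sample, and the part of depth in their calls was not tested.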
